A study of Caenorhabditis elegans with 8 samples.

Results

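Heterotrimeric G proteins, their regulators and the proteins that act with them were examined in Caenorhabditis elegans dauers and in worms leaving the dauer stage. The genes were chosen by a rule on names, set with earlier results of these data known. It took every measured gene whose platform symbol is gpa-, gpb-, gpc-, rgs- or arr- with a number. Added to these were goa-1, egl-30, gsa-1, odr-3, egl-10, eat-16, grk-1, grk-2 and ric-8. This gave 42 of the 15078 named genes. They comprised 22 G alpha genes, 2 G beta genes, 2 G gamma genes, 12 genes of RGS proteins (regulators of G protein signalling), 3 genes of arrestin and G protein-coupled receptor kinases (GRK), and ric-8.

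Transcript abundance was measured on 8 two-colour Agilent oligonucleotide arrays, 4 of dauers and 4 of dauer exit, each against a mix-stage RNA pool that served as the common reference. Worms were of the wild-type strain N2 Bristol in every group, with no transgene or mutation. Dauers, the arrested and stress-resistant larvae, were harvested from liquid cultures on day 12. Dauer exit samples were purified dauers that had spent 12 h on plates with bacterial food, and mix-stage worms came from plates that had been started with young adults and were harvested on day 5. On 2 arrays of each stage the stage's own RNA carried Cy5 and on 2 it carried Cy3. Each value below is the log2 ratio of own RNA over the mix-stage pool, so that 0 is the level of the pool and 1 is a doubling. All RNA was from whole worms and equal amounts of total RNA were labelled, so a ratio is not an amount per worm, and fewer cells of a type cannot be told apart from less RNA per cell.

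A heterotrimeric G protein carries the signal of a seven-transmembrane receptor into the cell. The receptor loads the alpha subunit with GTP, alpha and the beta-gamma pair then act on separate effectors, and an RGS protein ends the signal by speeding up GTP hydrolysis. C. elegans has one gene for each of the Gs, Gq, Go and G12 type alpha subunits, which act in many tissues, and a large set of further alpha subunits, most of which are expressed in a few chemosensory neurons. Chemosensory neurons read the pheromone and food cues that set dauer entry and exit, and gpa-2 and gpa-3 have been linked to the response to dauer pheromone.

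Between dauers and dauer exit, 0 of the 42 genes passed the test in either direction (limma, adjusted p of 0.05 or less over all 15078 genes), where 4.01% of all genes did (2.13% higher and 1.88% lower in dauers). At an unadjusted p under 0.05, 5 members were higher in dauers (gpa-1, gpa-8, gpa-9, gpa-11 and rgs-11) and 0 were lower, which is 11.9% of the members against 15.53% of all genes. The lowest adjusted p was 0.125, for rgs-11. Against the mix-stage pool, gpa-8 and gpa-1 were higher in dauers and rgs-9 was lower, 3 of 42 or 7.14%, where 18.5% of all genes were called (4.92% higher and 13.6% lower). In dauer exit, rgs-9 and rgs-11 were lower than the pool and 0 members were higher, 2 of 42 or 4.76%, where 9.52% of all genes were called (0.458% higher and 9.07% lower). Both comparisons with mix-stage use the same pool as 1 control sample, so they share its error, and variation among mix-stage cultures does not enter the tests.

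Averaged over the arrays of a stage, the median member lay close to the pool. The members' median was -0.07 and -0.12 on dauers 1 and 2 (own RNA in Cy5) and 0.28 and 0.27 on dauers 3 and 4 (Cy3). It ran from -0.04 to 0.09 on the dauer exit arrays. The median log2 fold change of the 42 genes was 0.02 between dauers and dauer exit, 0.07 for dauers against mix-stage and 0.04 for dauer exit against mix-stage, beside 0.03, -0.05 and -0.08 over all genes. The first and the second changed sign with single arrays: leaving out 1 array at a time moved the first from -0.0054 (without dauer exit 4) to 0.11 (without dauer 1), the second from -0.011 (without dauer 4) to 0.13 (without dauer 1), and the third from 0.016 (without dauer exit 1) to 0.051 (without dauer exit 4). The median size of the change, regardless of sign, was 0.22, 0.24 and 0.13 in the members and 0.27, 0.25 and 0.21 over all genes. For dauers against dauer exit the 95% confidence interval lay wholly within 1 log2 unit of 0 for 26 of the 42 members, and for the other 16 it reached a 2-fold difference or beyond. Its half-width ran from 0.41 to 1.45 with a median of 0.64.

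The side of the pool on which a gene lay was steady over the 4 arrays of a stage for few members. In dauers gpa-1, gpa-3, gpa-8, gpa-9, gpa-13 and rgs-2 were above the pool on all 4 arrays, and gpa-5, rgs-7 and rgs-9 were below it, which is 6 and 3 of 42, where 9.99% and 21.6% of all genes were so placed (31.6% together). In dauer exit gpa-2, gpa-3, gpa-6, gpa-16 and gpb-1 were above on all 4 arrays and gpa-17, gpc-2, rgs-9 and rgs-11 below, 5 and 4 of 42, against 5.88% and 24.2% of all genes (30% together). gpa-3 was above and rgs-9 below on all 8 arrays.

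**Figure D1:**
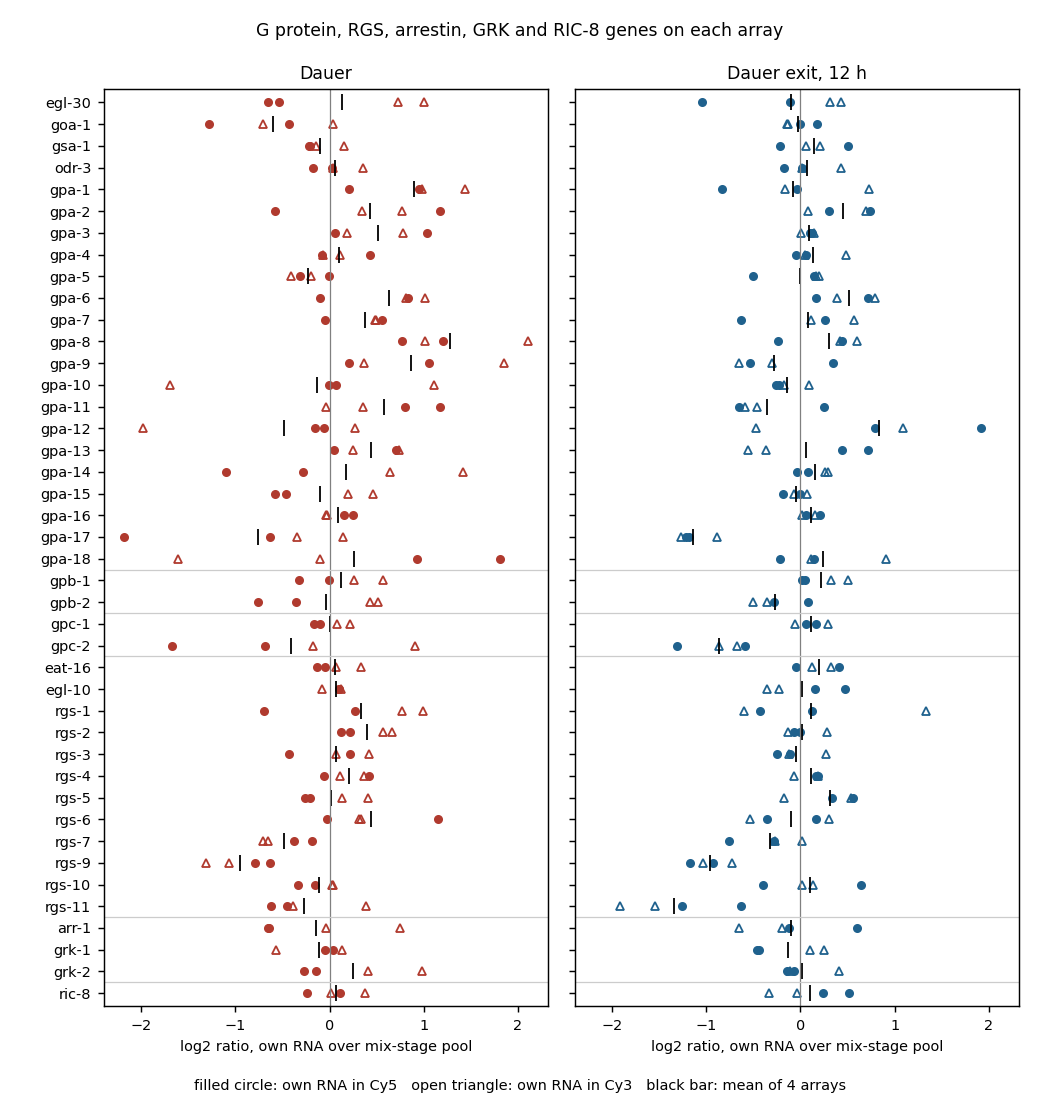
Log2 ratio of own RNA over the mix-stage pool for each of the 42 genes (rows, grouped by protein class) on the 4 dauer arrays (left) and the 4 dauer exit arrays (right). Filled circles are arrays with own RNA in Cy5, open triangles arrays with own RNA in Cy3, and black bars the mean of 4 arrays; rgs-9 lies below 0 on all 8 arrays, and the dauer arrays of gpa-8 lie above its dauer exit arrays.

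Both members called higher in dauers than in the pool, gpa-8 and gpa-1, are alpha subunits. Of the 18 genes named gpa, most of which act in chemosensory neurons, 13 had a positive log2 fold change in dauers against mix-stage, with a median of 0.31, where 6590 of the 15078 named genes were positive. In dauer exit 11 of the 18 were positive, with a median of 0.09, against 5770 of all genes. On single arrays the median of these 18 genes was 0.14, 0.10, 0.27 and 0.35 in dauers 1 to 4 and lay between 0.07 and 0.12 in dauer exit. Dauers 1 and 2 carried own RNA in Cy5 and dauers 3 and 4 in Cy3. For dauers directly against dauer exit the median log2 fold change of the 18 was 0.07, beside 0.03 over all genes. The median over all genes was below 0 on each of the 8 arrays.

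gpa-8, which encodes an alpha subunit expressed in the oxygen-sensing neurons AQR, PQR and URX, read 0.77, 1.20, 2.11 and 1.02 in dauers 1 to 4 and 0.44, 0.60, 0.42 and -0.24 in dauer exit 1 to 4. The stages did not overlap, the lowest dauer standing at 0.77 and the highest dauer exit at 0.60. In dauers it was 2.42-fold above the pool (log2 fold change 1.27, SE 0.23, adjusted p = 0.00392), whereas dauer exit stood at 0.31 (adjusted p = 0.561). The difference between the stages was 0.97 (SE 0.33), with a 95% interval from 0.24 to 1.70, and missed the threshold (adjusted p = 0.166). Without dauer 3, its highest array, the value in dauers was 1.00.

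gpa-1, another alpha subunit of chemosensory neurons, read 0.95, 0.21, 1.44 and 0.99 in dauers and -0.83, 0.73, -0.16 and -0.04 in dauer exit. The stages overlapped through dauer 2 and dauer exit 2. In dauers it was 1.86-fold above the pool (0.89, SE 0.26, adjusted p = 0.0413). That call was lost when dauer 1, dauer 3, dauer 4, dauer exit 3 or dauer exit 4 was left out (adjusted p from 0.0630 to 0.133). Between the stages the difference was 0.97 (SE 0.37, adjusted p = 0.229).

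Across the 42 genes, gpa-8 and rgs-11 were the 2 of 42 whose dauer arrays all lay above the dauer exit arrays, and 0 members showed the opposite. Over all genes 5.37% lay wholly higher and 4.18% wholly lower, 9.55% together. gpa-8 and gpa-9 lie near each other on chromosome V, with 1 protein-coding gene between them in the RefSeq annotation of WBcel235. gpa-9, expressed among others in the ASJ and PHB neurons, read 0.21, 1.05, 1.85 and 0.36 in dauers and -0.54, -0.30, -0.65 and 0.35 in dauer exit. Its dauer arrays lay above 3 of the 4 dauer exit arrays, and dauer exit 4 fell among them. It had the largest positive difference between the stages of the 42 genes, 1.15 (SE 0.39, adjusted p = 0.169), and stood at 0.87 in dauers against mix-stage (adjusted p = 0.0584). gpa-11, an alpha subunit of the ADL and ASH neurons, read 0.80, 1.18, 0.35 and -0.04 in dauers and -0.65, -0.46, -0.59 and 0.25 in dauer exit. Here, too, dauer exit 4 stood apart from the other dauer exit arrays and within the range of the dauers. The difference was 0.93 (SE 0.32, adjusted p = 0.173). gpa-9 and gpa-11 were described here after their values had been seen.

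gpa-2 and gpa-3, the pair linked to dauer pheromone, did not pass the test in any of the comparisons. gpa-2 read 1.18, -0.57, 0.77 and 0.34 in dauers and 0.74, 0.08, 0.69 and 0.31 in dauer exit. Both stages stood above the pool on average, apart from dauer 2, and they overlapped throughout. The log2 fold change against mix-stage was 0.43 in dauers (SE 0.26, adjusted p = 0.345) and 0.45 in dauer exit (SE 0.26, adjusted p = 0.398). The difference between the stages was -0.02, with a 95% interval from -0.85 to 0.80, which leaves room for a change of over 1.5-fold in either direction.

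gpa-3 read 0.06, 1.03, 0.19 and 0.78 in dauers and 0.10, 0.01, 0.15 and 0.12 in dauer exit. Dauer exit arrays lay within a narrow band just above the pool, and dauers 2 and 4 stood clear of it while dauers 1 and 3 lay within or close to it. The log2 fold change was 0.52 in dauers (SE 0.18, adjusted p = 0.0815) and 0.09 in dauer exit (adjusted p = 0.881), and the difference between the stages was 0.42 with a 95% interval from -0.15 to 0.99 (adjusted p = 0.527).

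The other gpa genes apart from gpa-12 had means on both sides of the pool. gpa-6 was positive in both stages (0.64 in dauers, adjusted p = 0.0594, and 0.51 in dauer exit, adjusted p = 0.177). gpa-17 was negative in both, at -0.76 in dauers (adjusted p = 0.144) and -1.14 in dauer exit (adjusted p = 0.0519). Its dauer exit arrays were tight, from -1.27 to -0.89, while its dauer arrays ran from -2.18 to 0.14. With a dye term in the fit, gpa-6 was called in dauers (adjusted p = 0.0466) and gpa-17 in dauer exit (adjusted p = 0.0345). The calls were made under 3 and 5 of 18 alternatives, in that order. gpa-18, gpa-10 and gpa-14 had the largest spread among dauers, with SDs of 1.47, 1.16 and 1.09 (n = 4), and their means in dauers were 0.26, -0.13 and 0.17. gpa-4, gpa-5, gpa-7, gpa-13, gpa-15 and gpa-16 lay between -0.23 and 0.44 in dauers and between -0.05 and 0.14 in dauer exit, and none passed the test against mix-stage.

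Markers of neurons were read beside these genes. Of 15 genes used by most neurons, sbt-1 and ric-19 were higher in dauers than in dauer exit, and the list's median on single arrays was 0.17, -0.60, 0.84 and 0.84 in dauers 1 to 4 against -0.49 to -0.36 in dauer exit. Dauer 2 thus lay below all 4 dauer exit arrays and the other dauers above them. Of 14 genes of ciliated sensory neurons, osm-1, che-2 and che-11 were higher in dauers than in the pool, and 0 were called between the stages. The median of that list was 0.14 to 0.65 in dauers and -0.44 to 0.18 in dauer exit, so the stages overlapped. What part these levels have in the values of gpa-8, gpa-1, gpa-9 and gpa-11 was not tested.

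**Figure D2:**
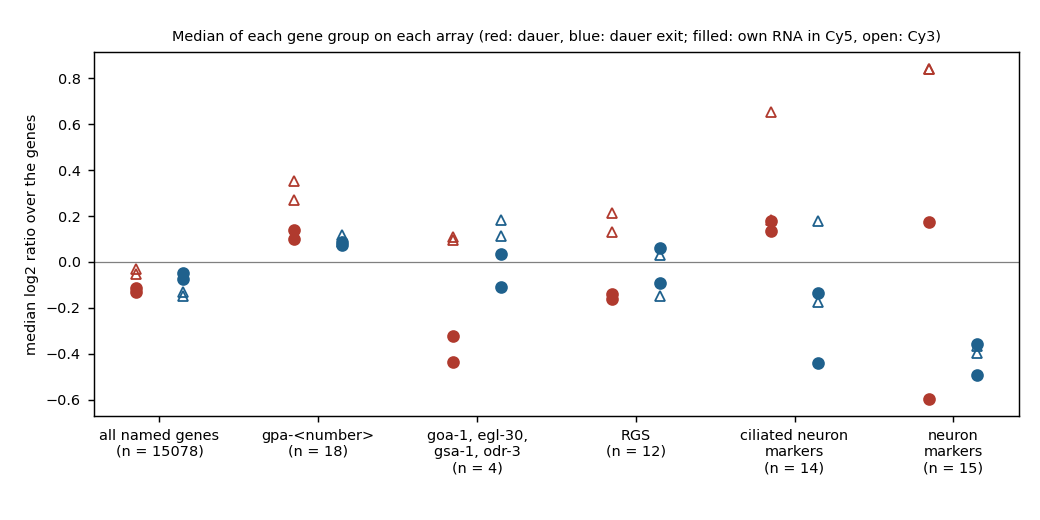
Median log2 ratio of own RNA over the mix-stage pool for groups of genes (x axis, number of genes in brackets) on each array; red stands for dauer, blue for dauer exit, filled circles for own RNA in Cy5 and open triangles for own RNA in Cy3. The 18 gpa genes lie between 0.10 and 0.35 in dauers and between 0.07 and 0.12 in dauer exit, and the neuron markers run from -0.60 to 0.84 in dauers.

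The alpha subunits with broad roles showed no called change. goa-1 encodes Go, which damps neurotransmitter release, and read -0.43, -1.28, -0.70 and 0.04 in dauers and 0.17, -0.15, -0.13 and -0.002 in dauer exit. Of the dauers, 3 lay below every dauer exit array and dauer 4 lay among them. The log2 fold change was -0.60 in dauers against mix-stage (SE 0.20, adjusted p = 0.0737), and -0.57 between the stages, with a 95% interval from -1.21 to 0.07 (adjusted p = 0.398). Leaving out dauer 4 brought goa-1 to -0.81 against mix-stage with an adjusted p of 0.0311, where over its 18 alternatives the adjusted p ran from 0.0311 to 0.459.

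egl-30 encodes Gq, which promotes release through phospholipase C beta, and read -0.53, -0.65, 1.01 and 0.73 in dauers. Both dauers with own RNA in Cy5 were below 0 and both with own RNA in Cy3 were above it, and the mean was 0.14 (SD 0.85, n = 4). In dauer exit it read -0.11, 0.43, 0.31 and -1.04, again with both Cy3 arrays above both Cy5 arrays. The difference between the stages was 0.24, with an interval from -0.81 to 1.29.

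gsa-1 encodes Gs, the activator of adenylyl cyclase, and read -0.21, -0.22, -0.14 and 0.15 in dauers and 0.51, 0.21, 0.06 and -0.22 in dauer exit. The stages overlapped and the difference of -0.24 had an interval from -0.74 to 0.25. odr-3, the alpha subunit needed for olfaction in the AWA and AWC neurons and for avoidance through ASH, read 0.02, -0.18, 0.36 and 0.03 in dauers and -0.18, 0.02, 0.43 and 0.02 in dauer exit. Its difference between the stages was -0.01, with an interval from -0.50 to 0.48, among the smallest of the 42. gpa-12, the G12 type subunit, had the most negative difference between the stages, -1.31 (SE 0.59, adjusted p = 0.334). It ran from -1.98 to 0.28 in dauers and from -0.47 to 1.91 in dauer exit, so the stages overlapped.

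**Figure D3:**
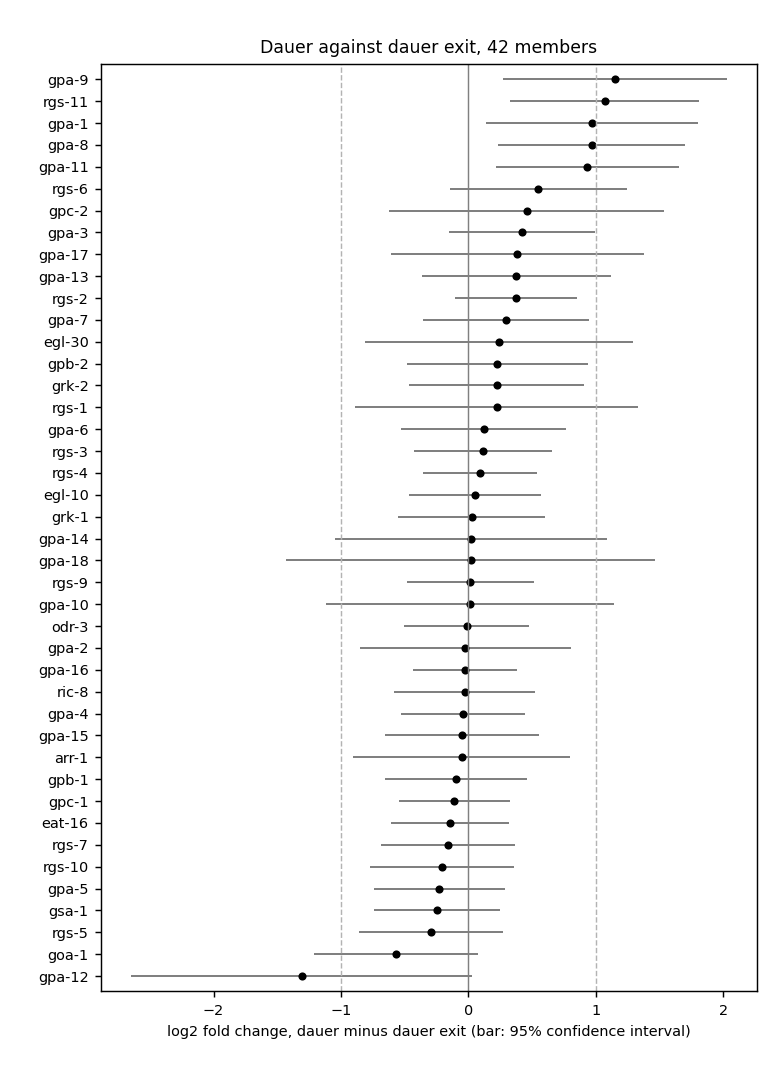
Log2 fold change of dauer minus dauer exit for each of the 42 genes, ordered by size, with bars for the 95% confidence interval of the limma model and dashed lines at a 2-fold difference. The intervals of gpa-9, rgs-11, gpa-1, gpa-8 and gpa-11 lie above 0 before adjustment over all genes, and 26 of the 42 intervals lie within the dashed lines.

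Neither the G beta nor the G gamma genes passed the test. gpb-1 encodes the G beta subunit that pairs with most alpha subunits, and read -0.003, -0.33, 0.57 and 0.26 in dauers and 0.01, 0.32, 0.50 and 0.04 in dauer exit. The stages overlapped, with a difference of -0.10 and an interval from -0.65 to 0.46. Its 6 probes disagreed, with dauer means from -0.61 to 0.77 and differences between the stages from -1.53 to 0.43. The most negative difference came from a probe that read 2.79 on dauer exit 1, where the others read -1.57 to 0.16. gpb-2, the G beta 5 type subunit that works in a complex with EGL-10 or EAT-16, read -0.76, -0.35, 0.52 and 0.43 in dauers and 0.08, -0.36, -0.51 and -0.28 in dauer exit. As for egl-30, its dauers divided by dye, and the difference of 0.23 had an interval from -0.48 to 0.94. gpc-1, a gamma subunit of sensory neurons, lay between -0.17 and 0.29 on the 8 arrays, from 12 probes. gpc-2, the broadly expressed gamma subunit, was below the pool on all 4 dauer exit arrays, from -1.31 to -0.59, with a log2 fold change of -0.86 (SE 0.34, adjusted p = 0.177). In dauers it ran from -1.67 to 0.91.

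Among the RGS genes, neither of those that act on Go and Gq in the control of neurotransmitter release was called. egl-10, whose product acts on Go, read 0.11, 0.10, 0.13 and -0.08 in dauers and 0.47, -0.35, -0.22 and 0.15 in dauer exit. The dauers lay inside the range of dauer exit, and the difference was 0.05 with an interval from -0.46 to 0.57. Of its 6 probes, 1 read 2.33 on dauer exit 1, where the others read -0.15 to 0.20. eat-16, whose product acts on Gq, read -0.05, -0.13, 0.07 and 0.34 in dauers and 0.41, 0.32, 0.12 and -0.05 in dauer exit. The stages again overlapped, and the difference was -0.14 with an interval from -0.61 to 0.32. Of its 10 probes, 1 read 2.44 on dauer exit 1, where the others read -0.42 to 1.44.

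rgs-9, which encodes a further RGS protein, was below the pool on all 8 arrays. It read -0.80, -0.63, -1.06 and -1.31 in dauers and -0.93, -0.72, -1.04 and -1.17 in dauer exit. Against mix-stage it was 1.93-fold lower in dauers (-0.95, SE 0.16, adjusted p = 0.00240) and 1.95-fold lower in dauer exit (-0.96, SE 0.16, adjusted p = 0.00453). The dauer exit arrays lay within the range of the dauers, and the difference between them was 0.02 with an interval from -0.48 to 0.51. Markers of several tissues were also below the pool. Of 11 germ line markers 8 were lower in dauers and 5 in dauer exit, and 6 of 6 yolk genes were lower in both. Of 9 markers of body-wall and pharyngeal muscle 6 were lower and 3 higher (myo-2, tni-4 and tnc-2) in dauers, and 5 were lower in dauer exit. Of 6 intestine markers 2 were lower in dauers and 1 in dauer exit. What part these levels have in the lower level of rgs-9 was not tested.

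rgs-11 showed a different pattern. It read -0.46, -0.62, 0.38 and -0.38 in dauers and -1.26, -1.55, -1.92 and -0.63 in dauer exit. The groups met without overlapping, the lowest dauer standing at -0.622 and the highest dauer exit at -0.634. In dauer exit it was 2.53-fold below the pool (-1.34, SE 0.23, adjusted p = 0.00637), and in dauers the change was -0.27 (adjusted p = 0.550). The difference between the stages was 1.07 (SE 0.33), with a 95% interval from 0.33 to 1.81, and missed the threshold (adjusted p = 0.125). Both stages divided by dye, in opposite directions. The Cy5 and Cy3 means were -0.54 and 0.0002 in dauers and -0.94 and -1.73 in dauer exit. Over the 18 alternatives, each dye alone among them, the difference ran from 0.41 to 1.73. rgs-10 is the next protein-coding gene to rgs-11 on chromosome X in the annotation of WBcel235, and it stood at -0.11 in dauers and 0.10 in dauer exit, with neither called.

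Of the other RGS genes, rgs-7, whose product acts on alpha subunits during spindle positioning in the early embryo, was negative on all 4 dauer arrays (-0.38, -0.19, -0.71 and -0.65) with a log2 fold change of -0.48 (SE 0.17, adjusted p = 0.0784). rgs-2, which limits Go signalling in the control of egg laying, was positive on all 4 dauer arrays (0.21, 0.13, 0.57 and 0.66) with a log2 fold change of 0.39 (SE 0.15, adjusted p = 0.114). Its counterpart rgs-1 ran from -0.70 to 0.99 in dauers and from -0.60 to 1.34 in dauer exit. rgs-3, rgs-4, rgs-5 and rgs-6 had means between 0.02 and 0.44 in dauers and between -0.11 and 0.31 in dauer exit, and none passed the test.

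The genes that switch receptors off, and ric-8, were near the pool on average. arr-1, the beta-arrestin, read -0.65, -0.65, -0.04 and 0.74 in dauers and 0.60, -0.66, -0.20 and -0.13 in dauer exit. Both stages spanned the pool, with a difference of -0.05 and an interval from -0.90 to 0.80. grk-2, a receptor kinase needed for chemosensation, read -0.27, -0.15, 0.41 and 0.99 in dauers and -0.14, 0.41, -0.11 and -0.07 in dauer exit. Its dauers were again divided by dye, and the difference was 0.22 with an interval from -0.46 to 0.91. grk-1 had means of -0.11 in dauers and -0.14 in dauer exit. ric-8, whose product helps to load alpha subunits with GTP, read -0.24, 0.11, 0.38 and 0.02 in dauers and 0.51, -0.33, -0.03 and 0.24 in dauer exit. The stages overlapped, with a difference of -0.03 and an interval from -0.58 to 0.52.

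Genes upstream and downstream of the G proteins were read from 5 lists. Of 16 measured effectors of Gq and Go, among them phospholipases, diacylglycerol kinases and protein kinases C, 0 were called in any comparison. The smallest p belonged to pkc-1, a protein kinase C of neurons, at -0.89 in dauer exit against mix-stage (adjusted p = 0.0667). Of 12 genes of Gs and cAMP signalling, 1 was called: acy-2, an adenylyl cyclase, was higher in dauers than in the pool (0.76, SE 0.16, adjusted p = 0.00965). Of 4 measured receptors for dauer pheromone, which act through G proteins in sensory neurons, 0 were called, and the 2 of smallest p in dauers against mix-stage were srbc-66 (0.32, adjusted p = 0.351) and srg-37 (0.16, adjusted p = 0.698).

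Of 21 measured receptors for amines, acetylcholine, glutamate and GABA, dop-3 was higher in dauers than in the pool (0.76, SE 0.14, adjusted p = 0.00442) and ser-6 was lower (-0.91, SE 0.24, adjusted p = 0.0291). dop-3 encodes a dopamine receptor that signals through Go, and ser-6 an octopamine receptor. Of 4 further partners of alpha subunits, ags-3 (0.09, adjusted p = 0.871) and lin-5 (-0.41, adjusted p = 0.616) were not called in dauers against the pool. The other members, gpr-2 and gpr-1, were lower in dauers, with log2 fold changes of -1.60 (SE 0.29, adjusted p = 0.00413) and -1.25 (SE 0.31, adjusted p = 0.0202). gpr-1 and gpr-2 are near-identical genes whose probes may not separate them, and their products act in the germ line and early embryo. Germ line markers were lower in dauers as well, 8 of 11. In dauer exit, where 5 of 11 were lower, gpr-2 stood at -0.47 (adjusted p = 0.442) and gpr-1 at -0.19 (adjusted p = 0.855). What part germ line content has in the values of gpr-1 and gpr-2 was not tested. Between dauers and dauer exit 0 genes of the 5 lists were called.

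The 4 dauer arrays divided by dye in many members. Both arrays with own RNA in Cy3 read above both with own RNA in Cy5 in 19 of the 42 genes (45.24%), and below both in 5 (11.9%), where 38.39% and 18.07% of all genes did so. In dauer exit both counts were 7 of 42 (16.67%), against 18.27% and 28.44% of all genes. The gap between Cy3 and Cy5 dauers was 1.72 for gpa-14, 1.54 for gpc-2, 1.46 for egl-30 and 1.30 for gpa-17, and -2.23 for gpa-18. In dauers gpa-8, gpa-1 and rgs-9 had the same sign in both orientations, as rgs-9 and rgs-11 did in dauer exit. That follows from their lying on one side of the pool on all 4 arrays of the stage. Even so, gpa-1 and rgs-9 divided by dye in dauers, with means of 0.58 and -0.71 in Cy5 and 1.21 and -1.19 in Cy3. rgs-11 divided in dauer exit, with -0.94 in Cy5 and -1.73 in Cy3. For gpa-8 in dauers and rgs-9 in dauer exit the orientations overlapped. The dye orientations are balanced within each stage, and the means above take both equally.

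**Figure D4:**
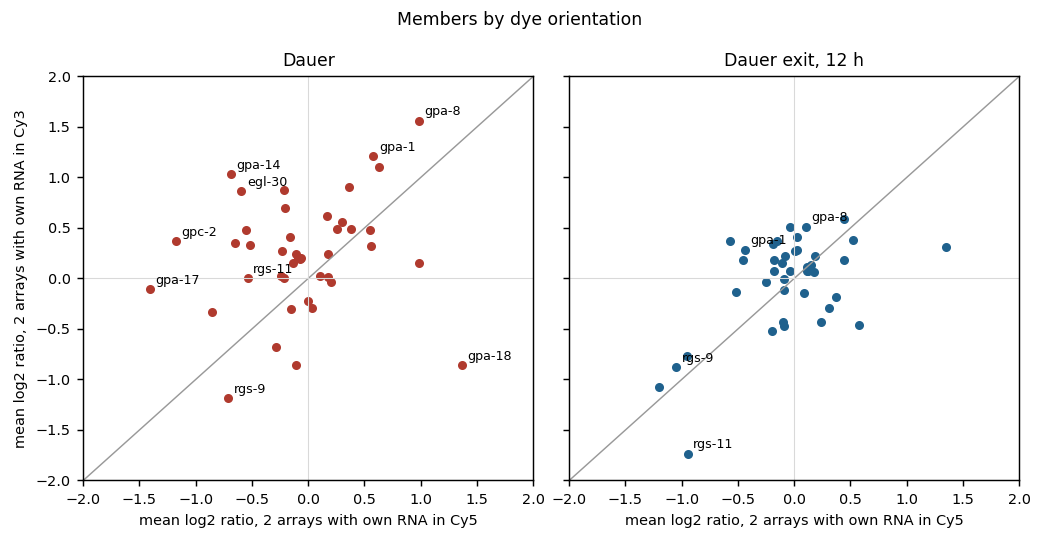
Mean log2 ratio of the 2 arrays with own RNA in Cy5 (x axis) against that of the 2 arrays with own RNA in Cy3 (y axis) for each of the 42 genes in dauers (left) and dauer exit (right), with the line of equal values. In dauers 19 genes have both Cy3 arrays above both Cy5 arrays, with gpa-14, gpc-2, egl-30 and gpa-17 far above the line and gpa-18 far below it.

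The members also differed in their number of probes. A single probe measured 26 of the 42 genes, gpa-8, gpa-1, gpa-9, gpa-11, rgs-9, rgs-11, gpa-2 and gpa-3 among them, so their values have no second probe to be set against. Of the 16 genes with more than 1 probe, 10 had probe means on both sides of 0 in dauers and 11 in dauer exit. The 4 probes of goa-1 had means on one side of 0 in dauers, from -1.02 to -0.26, and those of rgs-7 too, from -0.85 to -0.14. The same held for gpb-2 (-0.05 to -0.03), gpc-2 (-0.41 to -0.40), grk-2 (0.18 to 0.31) and rgs-2 (0.15 to 0.57).

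Over all genes, arrays of one stage correlated at 0.47 to 0.79 in dauers and 0.46 to 0.75 in dauer exit. Dauer 3 and dauer exit 1 had the lowest mean correlation with the other arrays of their stage, 0.577 and 0.539. Without both, gpa-8, rgs-9 and rgs-11 kept the calls given above and gpa-1 stood at 0.71 in dauers against mix-stage (adjusted p = 0.0834, where its alternatives ran from 0.0198 to 0.300). As a check of the labels, 7 dauer marker genes were measured, of which hsp-12.6 and mtl-1 were higher in dauers than in dauer exit and the other 5 were not called in that comparison. Against the pool, hsp-12.6 and mtl-1 were again higher in dauers, ctl-2 was lower (-1.67, adjusted p = 0.00522), and the remaining markers were not called.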

How the data were processed

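The deposited values were log2 ratios of Cy5 over Cy3, 1 column per array. Per the study's methods, the authors used limma for a normexp background correction and a lowess normalization within arrays that gave spike-in controls extra weight (version not given in the sources used here). Deposited columns had medians between -0.09 and 0.14, and correlated at 0.22 to 0.74 between arrays of one dye orientation and at -0.70 to -0.05 between opposite ones. The labelled dyes were used to turn each ratio to own RNA over mix-stage, and the values were otherwise left as deposited. Spot brightness, slide and date of scanning were not analysed here, so a dim probe cannot be told from a gene at the level of the pool, and filters on dim probes, other background corrections and a slide block were not run. The number of unmapped sample columns was 0.

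Of 45220 features, 44123 had values, and 27263 carried 1 gene symbol in the platform annotation (0 carried several). Of these, 19293 matched the RefSeq gene table (WBcel235) by accession, which renamed 98. Probes of a symbol were averaged, giving 15078 genes. The 42 members had 97 probes, 61 of them matched by accession, and 0 members were renamed. Chromosomes and the order of neighbouring genes were taken from the same table. Coordinates are not printed, and no sequences were used.

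One linear model over all 8 arrays was fitted in R 4.3.3 with limma 3.58.1 (functions lmFit and eBayes), and p-values were Benjamini-Hochberg adjusted over all genes and called at 0.05 or less. SE is the moderated standard error and intervals are at 95%. The median SE was 0.306 between the stages and 0.216 against mix-stage, and precision is limited by the number of arrays. The labels call samples biological replicates and the study took them from parallel cultures. In simulated data with 15078 genes, log2 changes of 1, 2 and 3 were recovered in 22.4%, 58.9% and 84.4% of cases for dauer versus dauer exit. For dauer versus mix-stage they were recovered in 46.3%, 78.6% and 94.8%, with 9 unchanged genes called in each. The simulated noise was independent between arrays, without a dye effect, and 67, 56 and 77 genes carried these changes, fewer than were called in the data. Recovery in the data may therefore differ. Python 3.11.15 with pandas 2.3.3 made the summaries.

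Values on every array were given for members called in any comparison and for gpa-2, gpa-3, goa-1, egl-30, gsa-1, odr-3, gpb-1, gpb-2, egl-10, eat-16, arr-1, grk-2 and ric-8. Outside that rule, array values were added for gpa-9 and gpa-11, and dauer array values for rgs-7 and rgs-2, with their results known. From each pathway list up to 4 called genes, or the 2 of smallest p, were eligible. The members, lists and markers were chosen with earlier results of these data known. Alternatives were a dye term, a common scale, median centring, the median of probes, platform symbols, robust eBayes, 1 stage in the fit, each array left out, a replicate block and each dye orientation alone.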

Additional observations from a re-analysis of the deposited data

Results flagged for a closer look

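In 5 of 84 groups of 4 arrays (42 genes in each stage), 1 array stood far from the others, judged by its gap to the nearest array over the range of the group. Chance would give this in about 1 in 20 groups. Dauer 2 read -0.043 for gpa-7, where the other dauers read 0.48 to 0.56. Dauer 4 read -0.077 for egl-10, against 0.10 to 0.13. Dauer exit 1 read -0.51 for gpa-5, against 0.14 to 0.20. Dauer exit 2 read 0.41 for grk-2, against -0.14 to -0.07, and -0.069 for rgs-4, against 0.16 to 0.19. None of these genes was called in any comparison.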

How the results depend on the processing

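Between dauers and dauer exit 0 of the 42 members were called under each of the 18 alternatives. The call of gpa-8 in dauers, that of rgs-9 in dauers and that of rgs-11 in dauer exit held under 17 of 18 alternatives, that of rgs-9 in dauer exit under 16, and that of gpa-1 under 8. Each of these 5 calls was lost on the Cy5 arrays alone (2 per stage), where gpa-8 had an adjusted p of 0.0695, gpa-1 0.300, rgs-9 0.0739 in dauers and 0.0603 in dauer exit, and rgs-11 0.106. Over the alternatives these adjusted p-values ran, in the same order, from 0.00239 to 0.0695, from 0.0198 to 0.300, from 0.00240 to 0.0739, from 0.00426 to 0.0807 and from 0.00326 to 0.106. A dye term added gpa-6 to the members higher in dauers than mix-stage and gpa-17 to those lower in dauer exit. A common scale between arrays left 1 member higher in dauers than mix-stage and 125 genes higher in dauer exit. Centring each array on its median gave 5 members higher in dauers than mix-stage (gpa-3, gpa-6 and gpa-9 were added), 115 genes higher in dauer exit, and a member median of 0.14 there. With 1 stage in the fit, 1 member and 427 genes were higher in dauers than mix-stage and 4 members were lower in dauer exit (gpa-17 and gpc-2 were added). Within own RNA in Cy5, 0 genes were called higher and 0 lower between the stages, 1 member and 235 genes were higher and 0 members lower in dauers, and in dauer exit 0 members were lower, 11 genes were higher, 610 were lower and the member median turned to -0.037. Within own RNA in Cy3, 58 genes were lower in dauers than dauer exit and the member median was 0.25, 854 genes were lower in dauers than mix-stage, and in dauer exit 1 member was lower, with 19 genes higher and 655 lower. Without dauer 3 and dauer exit 1, an alternative chosen after seeing the data, 152 genes were higher in dauers than dauer exit, 1 member was higher in dauers than mix-stage and 44 genes were higher in dauer exit. The cause of these shifts was not tested, and the fits within 1 dye and with 1 stage hold fewer arrays. Leaving out each array in turn gave 131 to 521 genes higher and 146 to 371 lower between the stages, 1 to 3 members higher, 1 to 2 members lower and 420 to 799 genes higher in dauers than mix-stage, and 17 to 90 genes higher and 678 to 1771 lower in dauer exit. It moved the member median from -0.0054 to 0.11 between the stages, from -0.011 to 0.13 in dauers against mix-stage and from 0.016 to 0.051 in dauer exit. gpa-2 was called in dauers only without dauer 2 (0.76, adjusted p = 0.0464, range 0.0464 to 0.800). Samples of the 2 stages share replicate numbers, and the main fit did not pair them. Deviations of same-numbered arrays correlated at 0.07, -0.05, 0.24 and -0.15. Numbers 1 and 3, the positive ones, share a dye orientation between the stages, and numbers 2 and 4 do not. These correlations therefore cannot decide whether the cultures were paired. With the replicate number as a block 0 members were called higher and 0 lower, and 236 genes were called higher and 253 lower between the stages. The number of arrays limits detection, and signal over background was not used here.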
